A study of Mus musculus with 6 samples.

Results

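The genes described here are 9 genes of the myelin sheath and of mature oligodendrocytes, *Mbp*, *Mog*, *Mag*, *Mobp*, *Cnp*, *Cldn11*, *Opalin*, *Ermn* and *Mal*, which were chosen by name as established markers and not by a threshold on their values. They are 9 of the 52390 genes listed in the count table, and all 9 had enough counts to be among the 21844 genes tested. Brain RNA of 3 *AP1AR-DT* overexpressing (*AP1AR-DT* OE) mice and 3 control mice was sequenced to ask how gain of the human long non-coding RNA *AP1AR-DT*, labelled AC109347.1 in the sample records, alters the transcriptome. All mice were wild type C57BL/6 males that had received, in the medial prefrontal cortex (mPFC) and at 8 weeks of age, an adeno-associated virus (AAV), which carried *AP1AR-DT* in one group and no insert in the other. In the virus *AP1AR-DT* was under the human synapsin promoter, which is active in neurons and not in oligodendrocytes. The fluorescent reporter of the virus, EGFP, was under the CMV promoter. Which cells expressed either was not tested in these data. The tissue is the mPFC or cortical tissue in different parts of the study's text and brain in the sample labels. The control libraries are numbered 1 to 3 as the mice are, and the *AP1AR-DT* OE libraries, whose columns do not give the mouse, are called A, B and C.

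Oligodendrocytes are the glia that wrap axons of the central nervous system in myelin, a stack of compacted membrane that insulates the axon and speeds conduction. They arise from precursor cells, pass through a newly formed stage, and then switch on a common set of genes for structural proteins of compact myelin, adhesion molecules that face the axon or the neighboring sheath, and enzymes of myelin lipids. The factors MYRF and SOX10 drive this program. White matter and deep structures hold far more of these transcripts than the cortical gray matter.

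The promoters of 4 members are shown first, *Ermn* and *Mobp*, which had the lowest values in *AP1AR-DT* OE mice relative to control mice, and *Mag* and *Cnp*, which lay at the other end of the 9. Each line gives RefSeq sequence of GRCm38.p6, 5′ to 3′ on the strand of the gene, upstream of the gene start as GENCODE annotates it. The windows are chr2:58052865-58053114 (minus strand) for *Ermn*, chr9:120149492-120149706 (plus strand) for *Mobp*, chr7:30914874-30915113 (minus strand) for *Mag* and chr11:100574689-100574903 (plus strand) for *Cnp*. Capitals mark the letters of a MYRF motif (CTGGCAC or CTGGTAC) or of a SOX motif (ACAATG or ACAAAG), searched on both strands, so that CTTTGT is ACAAAG on the other strand.
Ermn: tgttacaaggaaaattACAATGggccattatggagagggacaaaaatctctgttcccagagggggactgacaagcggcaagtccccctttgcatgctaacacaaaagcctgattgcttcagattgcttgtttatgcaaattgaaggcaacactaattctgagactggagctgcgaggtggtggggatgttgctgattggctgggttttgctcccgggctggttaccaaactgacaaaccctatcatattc
Mobp: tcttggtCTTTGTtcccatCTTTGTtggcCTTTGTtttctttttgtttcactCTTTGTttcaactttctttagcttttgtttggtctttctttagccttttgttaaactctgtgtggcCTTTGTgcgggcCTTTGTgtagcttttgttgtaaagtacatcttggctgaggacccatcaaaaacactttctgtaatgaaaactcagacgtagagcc
Mag: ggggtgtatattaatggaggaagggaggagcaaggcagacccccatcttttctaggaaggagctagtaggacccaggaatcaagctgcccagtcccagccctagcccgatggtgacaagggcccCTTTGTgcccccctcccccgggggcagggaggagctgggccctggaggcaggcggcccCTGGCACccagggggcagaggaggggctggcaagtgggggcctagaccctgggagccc
Cnp: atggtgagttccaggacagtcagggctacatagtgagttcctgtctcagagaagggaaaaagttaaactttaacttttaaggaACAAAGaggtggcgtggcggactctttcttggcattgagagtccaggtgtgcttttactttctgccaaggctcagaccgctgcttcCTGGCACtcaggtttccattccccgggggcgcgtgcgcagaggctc

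Promoter windows were found for 8 of the 9 genes, 10 windows in all, and the 250 bases before the RefSeq start were searched in each. Letters of the MYRF motif stood before *Mag*, *Cnp* and *Mog*, 3 of 8 genes. They were in 4 of the 10 windows, where 5.93% of 32851 windows of the same length held them. Letters of the SOX motif stood before *Mobp*, *Ermn*, *Mag*, *Cnp* and *Opalin*, 5 of 8 genes, and in 6 of the 10 windows, against 25.2% of all windows. The window of *Mobp* held 6 SOX matches, all in one orientation, and of all windows searched 1, that of *Mobp*, held as many, a count singled out after it was seen. *Mag* had several of the windows, some of which overlap, so that the same MYRF and SOX letters before *Mag* count more than once. These matches describe letters in a window and are not sites of binding.

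The libraries held 42.1 to 54.7 M counts. The counts of the 9 genes took 0.432%, 0.572% and 0.911% of all counts in control 1, 2 and 3, and 0.466%, 0.469% and 0.471% in *AP1AR-DT* OE libraries A, B and C. The control mice spanned a range that began below the *AP1AR-DT* OE mice and reached far above them. *Mbp* alone made up 59.8% to 62.4% of the members' counts in each library. Such depth leaves little counting error on any member, since the lowest count was 878, for *Opalin* in control 1. Nothing in the labels says more of the replicates than the number of the mouse, and the p-values measure the spread between these mice. The table counts mouse genes and not the human transcript, which leaves no direct check of the overexpression here.

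The most abundant member per length of exon was *Mbp*, which encodes myelin basic protein, the protein that brings the cytoplasmic faces of the myelin membrane together. Its level in control mice was 453 ± 169 (SD, n = 3) normalized CPM per kilobase of exon, where normalized CPM stand for counts per library brought to the same total. *Cnp* followed at 174 ± 46.5 (SD, n = 3) CPM per kilobase, *Mobp* at 160 ± 75.3 (SD, n = 3), *Mal* at 106 ± 42.8 (SD, n = 3) and *Cldn11* at 102 ± 42.7 (SD, n = 3). The lower levels per kilobase were those of *Mog* at 42.5 ± 14.4 (SD, n = 3), *Mag* at 36.2 ± 11.6 (SD, n = 3), *Ermn* at 21.7 ± 9.46 (SD, n = 3) and *Opalin* at 10.1 ± 3.38 (SD, n = 3). In this order the means of *Cnp* and *Mobp*, of *Mobp* and *Mal*, of *Mal* and *Cldn11*, and of *Mog* and *Mag* differed by less than the SD of at least one of the pair. In *AP1AR-DT* OE mice *Mbp* was at 343 ± 7.54 (SD, n = 3), *Cnp* at 149 ± 1.32 (SD, n = 3) and *Mobp* at 88.7 ± 1.84 (SD, n = 3) CPM per kilobase. *Cnp* and *Mobp* were within 1 SD of each other in control mice and not in *AP1AR-DT* OE mice, where the SDs were far smaller. These SDs are between mice and do not pair the genes within a library, so no change between *Cnp* and *Mobp* is read from them.

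Of the 9 genes, 2 were downregulated differentially expressed genes (DEGs), *Ermn* and *Mobp*, 0 were upregulated, and 7 were not called. A DEG was a gene with an absolute log2 fold change (Log2FC) above 0.32 and an unadjusted *P* under 0.05 in the quasi-likelihood test of edgeR. Over all genes tested 12.2% were DEGs, 7.15% in the lower and 5.10% in the higher direction, and the 2 of 9 are read beside these shares. After Benjamini-Hochberg adjustment over all genes, 0 members had an adjusted *P* under 0.05 by edgeR and 2 had an unadjusted *P* under 0.05. DESeq2 gave 1 member below 0.05 after adjustment, *Ermn* at 0.0228, and limma-voom 0. Over all genes 0.0275% passed adjustment by edgeR and 1.77% by DESeq2. In bulk tissue, fewer oligodendrocytes and less of a transcript per oligodendrocyte cannot be told apart.

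*Ermn* encodes ermin, a cytoskeletal protein of mature oligodendrocytes that is used as a late marker of myelination. Its normalized CPM were 48.2, 72.6 and 116 in control 1, 2 and 3, and 36.6, 35.5 and 45.1 in *AP1AR-DT* OE libraries A, B and C. Every *AP1AR-DT* OE library lay below every control library, by a narrow margin below control 1. The mean fell from 79.0 ± 34.4 (SD, n = 3) to 39.1 ± 5.23 (SD, n = 3), a Log2FC of -1.02 (SE 0.300, edgeR *P* = 0.0114, adjusted *P* = 0.295, two-sided exact permutation *P* = 0.1, the smallest that 3 mice against 3 allow). *Ermn* had *P* under 0.05 in all 15 fits made, with an adjusted *P* between 0.0228 and 0.661. Without control 3 its Log2FC was -0.62 (SE 0.198, edgeR adjusted *P* = 0.399). In GRCm38 the gene spans 58045113 to 58052864 of chromosome 2, minus strand, with 1 transcript, and 237 of its exon bases overlap *Galnt5* on the other strand.

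*Mobp* encodes myelin-associated oligodendrocyte basic protein, an abundant component of compact myelin. Its normalized CPM were 738, 865 and 1688 in control 1, 2 and 3, and 618, 610 and 594 in *AP1AR-DT* OE libraries A, B and C. The *AP1AR-DT* OE libraries were nearly alike and all lower than the controls, while control 3 stood far above control 1 and 2. The mean fell from 1097 ± 516 (SD, n = 3) to 607 ± 12.6 (SD, n = 3), with a Log2FC of -0.85 (SE 0.295, edgeR *P* = 0.0231, adjusted *P* = 0.296, exact permutation *P* = 0.1). Without control 3 the Log2FC was -0.39 (SE 0.108, edgeR adjusted *P* = 0.399), smaller in size and still past the DEG thresholds. *P* was under 0.05 in 12 of 15 fits. Without *AP1AR-DT* OE library A, B or C it was 0.0563, 0.0607 and 0.0664, and the adjusted *P* ranged from 0.0509 to 0.661 over all fits. *Mobp* spans 120149707 to 120181484 of chromosome 9, plus strand, and has 7 transcripts, which the counts do not separate. Of its exon bases, 79 overlap *Gm38642* on the same strand.

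In 2 of 9 members, *Ermn* and *Mobp*, the groups did not overlap with *AP1AR-DT* OE mice lower, and this held for 12% of all genes tested. In all 9 the highest of the 6 libraries was control 3, which was the highest library in 21.9% of all genes. Control 1 was the lowest control in all 9. The plot of the members by library shows the same order of the 3 controls in each panel.

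**Figure D1:**
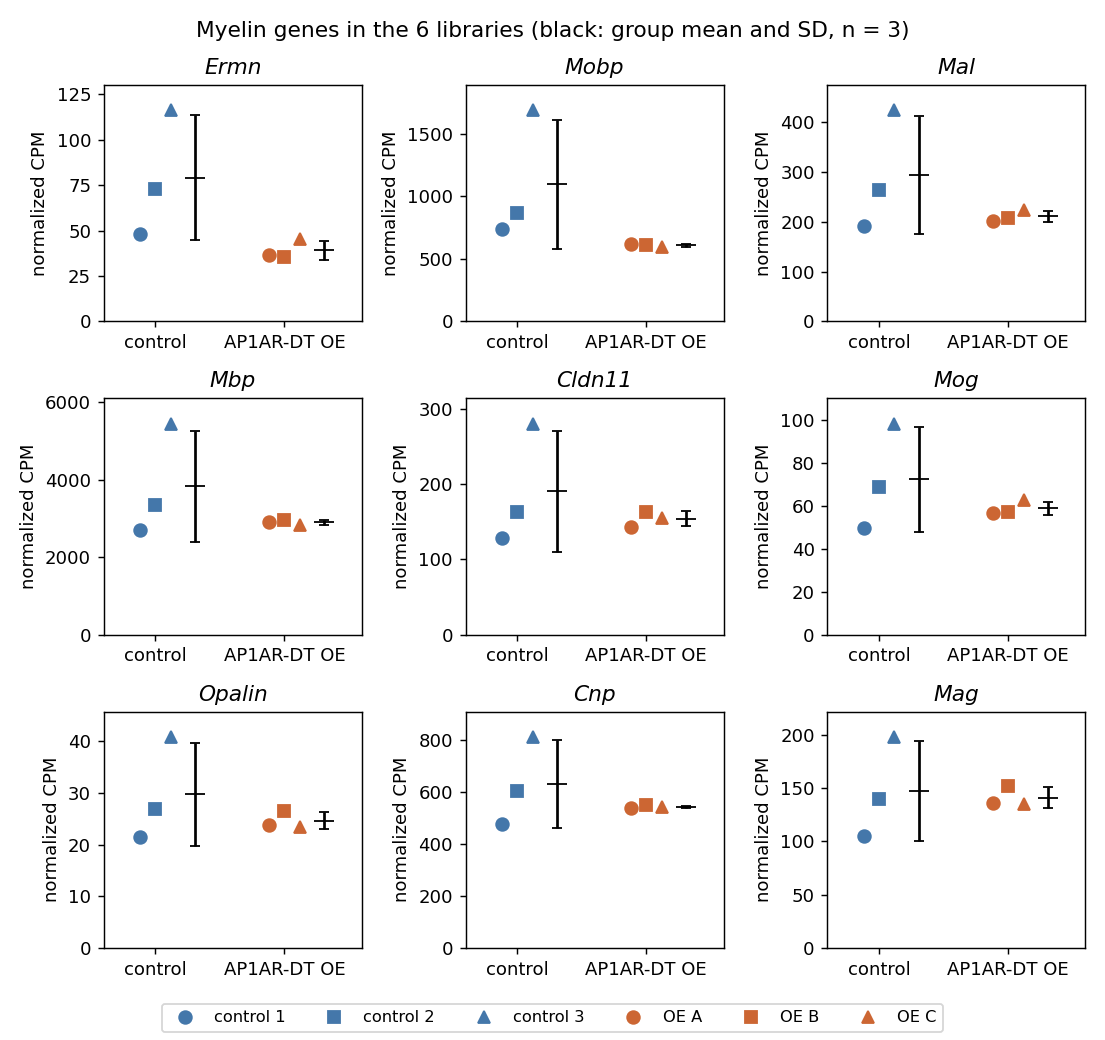
Normalized CPM (linear axis from 0, one scale per panel) of the 9 myelin genes in each of the 3 control (blue) and 3 *AP1AR-DT* OE (orange) libraries, with the group mean and SD in black. Control 3 is the highest library in all 9 panels, and the groups do not overlap for *Ermn* and *Mobp*, where *Ermn* falls from a mean of 79.0 to 39.1 CPM.

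The other structural proteins of compact and spiral myelin did not pass the DEG thresholds. *Mbp* spans 82475146 to 82585637 of chromosome 18, plus strand, and its 16 annotated transcripts are counted together. Its normalized CPM were 2708, 3357 and 5453 in control 1, 2 and 3, and 2921, 2959 and 2834 in *AP1AR-DT* OE libraries A, B and C. All *AP1AR-DT* OE values lay between control 1 and control 2. The Log2FC was -0.40 (SE 0.247, edgeR *P* = 0.147, adjusted *P* = 0.458, exact permutation *P* = 0.4), and -0.049 without control 3.

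*Mal* (chromosome 2, 127633226 to 127656695, minus strand) encodes a proteolipid that takes part in sorting of membrane to myelin. *Mal* had 192, 265 and 425 normalized CPM in control 1, 2 and 3, and 203, 207 and 224 in *AP1AR-DT* OE libraries A, B and C. The *AP1AR-DT* OE values again lay between control 1 and control 2. The Log2FC was -0.48 (SE 0.264, edgeR *P* = 0.114, adjusted *P* = 0.421, exact permutation *P* = 0.4), and -0.10 without control 3.

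*Cldn11* (chromosome 3, 31149920 to 31164324, plus strand) encodes claudin-11, which forms the tight junctions between turns of the myelin spiral. Levels of *Cldn11* were 128, 163 and 280 normalized CPM in control 1, 2 and 3, and 144, 163 and 155 in *AP1AR-DT* OE libraries A, B and C. The values of library B and control 2 were nearly the same. The Log2FC was -0.31 (SE 0.269, edgeR *P* = 0.289, adjusted *P* = 0.602, exact permutation *P* = 0.8), and 0.095 without control 3.

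The surface molecules of the sheath showed the same order of controls with smaller differences between groups. *Mog* (chromosome 17, 37010743 to 37023398, minus strand) encodes myelin oligodendrocyte glycoprotein, which sits on the outermost turn of the sheath. *Mog* stood at normalized CPM of 49.8, 69.0 and 98.5 in control 1, 2 and 3, and 56.8, 57.3 and 62.6 in *AP1AR-DT* OE libraries A, B and C, all of the latter between control 1 and control 2. The Log2FC was -0.30 (SE 0.229, edgeR *P* = 0.234, adjusted *P* = 0.553, exact permutation *P* = 0.6).

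*Mag* (chromosome 7, 30899176 to 30914873, minus strand) encodes myelin-associated glycoprotein, an adhesion molecule of the innermost membrane that faces the axon. Normalized CPM of *Mag* were 105, 140 and 198 in control 1, 2 and 3, and 136, 152 and 135 in *AP1AR-DT* OE libraries A, B and C. Libraries A and C were just below control 2 and library B above it. The means, 148 ± 47.0 (SD, n = 3) and 141 ± 9.56 (SD, n = 3), were the closest of the 9, with a Log2FC of -0.064 (SE 0.215, edgeR *P* = 0.775, adjusted *P* = 0.907, exact permutation *P* = 0.8). Without control 3 the Log2FC was 0.22 (SE 0.142, edgeR adjusted *P* = 0.522).

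*Opalin* (chromosome 19, 41061710 to 41077113, minus strand) encodes a membrane glycoprotein of oligodendrocytes. Normalized CPM of *Opalin* were 21.6, 26.9 and 40.9 in control 1, 2 and 3, and 23.9, 26.5 and 23.5 in *AP1AR-DT* OE libraries A, B and C, again between control 1 and control 2. The Log2FC was -0.28 (SE 0.227, edgeR *P* = 0.265, adjusted *P* = 0.583, exact permutation *P* = 0.6).

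*Cnp* (chromosome 11, 100574904 to 100591729, plus strand) encodes a phosphodiesterase that keeps cytoplasmic channels of the sheath open. Its normalized CPM were 477, 606 and 813 in control 1, 2 and 3, and 539, 549 and 543 in *AP1AR-DT* OE libraries A, B and C. Relative to their level the latter had the smallest spread of any member, 544 ± 4.81 (SD, n = 3). The Log2FC was -0.22 (SE 0.184, edgeR *P* = 0.276, adjusted *P* = 0.592, exact permutation *P* = 0.7), and 154 of its exon bases overlap *Dnajc7* on the other strand.

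All 9 Log2FC were below 0, with a median of -0.31 against -0.014 over all genes tested. Without control 3 they split into 4 below and 5 above 0, with a median of 0.00098 against 0.0038 over all genes. *Ermn* and *Mobp* were then still the members called, 2 of 9 where 5.16% of all genes were called lower. Without control 1 the calls among the 9 rose to 6, with *Mal* at -0.71 (edgeR adjusted *P* = 0.236), *Mog* at -0.51 (adjusted *P* = 0.255), *Mbp* at -0.60 (adjusted *P* = 0.268) and *Cnp* at -0.38 (adjusted *P* = 0.279) added, and 8.61% of all genes were called lower. The number of myelin genes called thus depended on which single control was in the fit, and the Log2FC of *Mog*, *Mag*, *Cnp*, *Cldn11* and *Opalin* changed sign with control 3. The Log2FC of *Ermn*, *Mobp*, *Mal* and *Mbp* stayed below 0 with each library left out, though *Mal* was at -0.10 and *Mbp* at -0.049 without control 3.

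**Figure D2:**
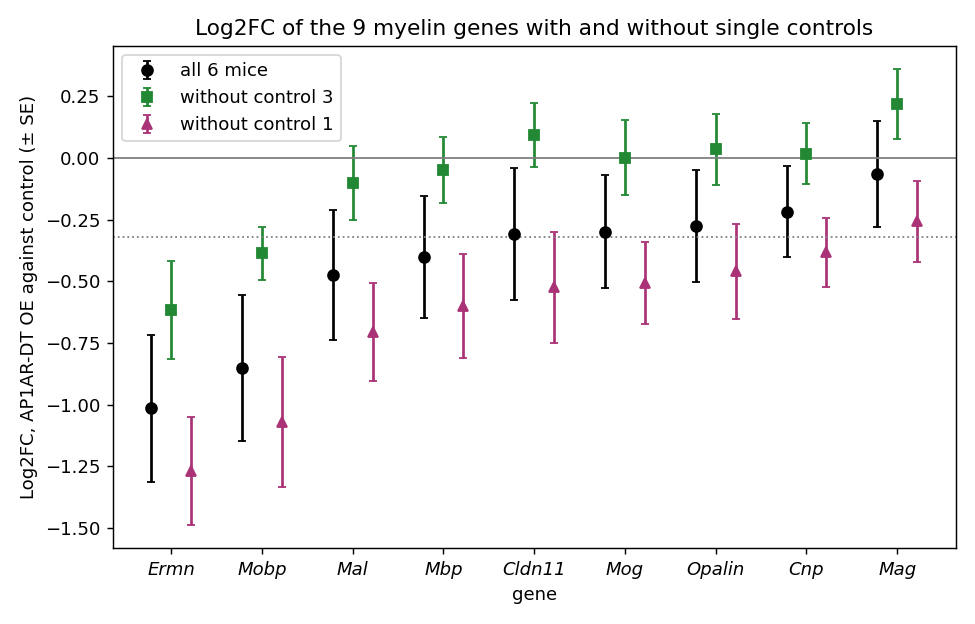
Log2FC (vertical axis, log2 scale, bars ± standard error) of each of the 9 genes with all 6 mice (black), without control 3 (green) and without control 1 (purple); the dotted line marks -0.32. *Ermn* and *Mobp* lie below the dotted line in all 3 fits, and without control 3 the other 7 lie between -0.10 and 0.22.

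The spread between mice was itself unequal. The highest control exceeded the lowest by 1.70-fold (*Cnp*) to 2.41-fold (*Ermn*), whereas the highest *AP1AR-DT* OE library exceeded the lowest by 1.02-fold (*Cnp*) to 1.27-fold (*Ermn*). On the log2 scale the SD of the controls was above that of the *AP1AR-DT* OE mice in all 9 members and in 58.3% of 20732 genes with counts in every library. Control 3 was 1.50-fold (*Cnp*) to 2.11-fold (*Mobp*) above the mean of the other controls. The mean log2 level of the 9 genes, set against that of the *AP1AR-DT* OE mice, was -0.11 in control 1, 0.28 in control 2 and 0.93 in control 3.

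Control 3 also stood apart in genes of other tissues. The choroid plexus list, which marks the secretory epithelium of the ventricles, had all 9 of its tested genes highest in control 3, and its summed level there was 5113 CPM, against 146 and 156 CPM in control 1 and 2 and 116 to 145 CPM in *AP1AR-DT* OE mice. Its defining gene *Ttr*, which encodes transthyretin, was at 3428 CPM in control 3 and between 1.06 and 5.43 CPM in the other libraries. The thalamic list had all 10 genes highest in control 3, with a summed level of 1510 CPM there, 726 and 746 CPM in the other controls and 483 to 791 CPM in *AP1AR-DT* OE mice. Their part in the levels of the 9 myelin genes was not tested. Without control 3 the Log2FC of *Ermn* went from -1.02 to -0.62 and that of *Mobp* from -0.85 to -0.39. The summed level of the hypothalamic list stood apart in another mouse, with 687 CPM in control 2 and 28.0 to 91.4 CPM in the other libraries. Its mean log2 level, set against its mean over the 6 libraries, was 2.13 in control 2 and 1.06 in control 3. In the other libraries it was between -1.52 and -0.35, and 3 of its 9 tested genes were highest in control 3. Without control 2 the Log2FC was -1.07 for *Ermn* and -0.99 for *Mobp*.

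Neuronal markers differed between libraries too. The mean log2 level of 10 excitatory neuron markers, set against its mean over the 6 libraries, was -0.71, -1.75 and 1.38 in control 1, 2 and 3 and 0.75, 1.29 and -0.95 in *AP1AR-DT* OE libraries A, B and C, so that libraries of both groups stood at either end. *Slc17a7*, which encodes the vesicular glutamate transporter of cortical neurons, was at 28.2, 3.86 and 233 CPM in the controls and at 231, 463 and 87.2 CPM in *AP1AR-DT* OE mice. *Neurod2*, a factor of cortical excitatory neurons, was at 5.38, 0.28 and 61.2 CPM in the controls and at 34.4, 56.8 and 0.90 CPM in *AP1AR-DT* OE mice. The summed level of the list, 1414 to 2719 CPM in control mice and 1992 to 3521 CPM in *AP1AR-DT* OE mice, is mostly that of *Camk2a*, at 1075 CPM or more in every library. The striatal list summed to 1516, 407 and 557 CPM in control 1, 2 and 3 and to 2684, 951 and 1019 CPM in *AP1AR-DT* OE libraries A, B and C. Of its 10 genes 0 were called, all 10 Log2FC were above 0, and their median was 0.90. Libraries thus differed in markers of several brain regions, and the part of these differences in the levels of the 9 myelin genes was not tested. Mitochondrial genes took 7.20% to 9.86% of the counts in control mice and 5.75% to 6.80% in *AP1AR-DT* OE mice.

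**Figure D3:**
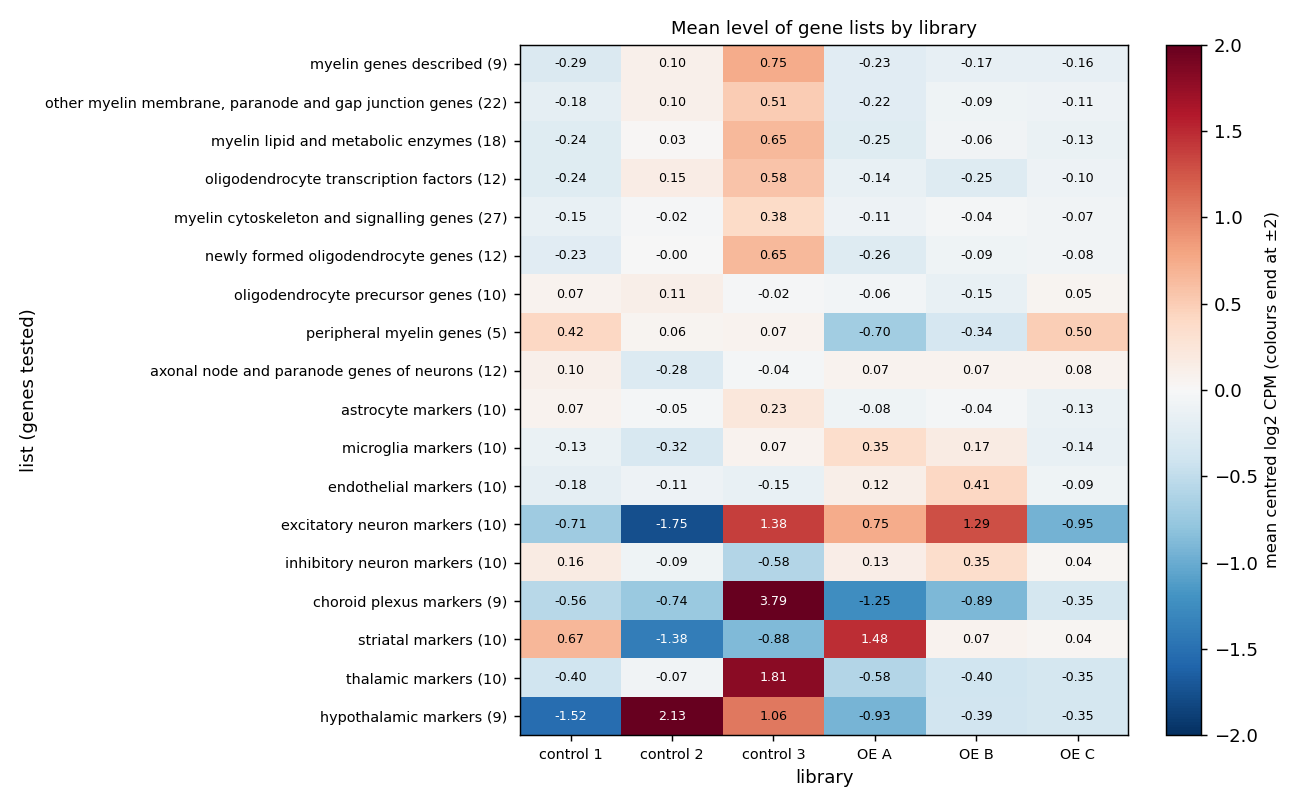
Mean log2 CPM of the tested genes of each list in each library, centred on the mean of the 6 libraries (red above, blue below; colors end at 2 log2 units on either side). The 9 myelin genes are at 0.75 in control 3 and between -0.29 and 0.10 elsewhere, while the choroid plexus list reaches 3.79 and the thalamic list 1.81 in the same library.

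To ask whether the 9 genes moved in proportion to each other, each was expressed relative to their mean in the same library, a measure chosen after seeing the data that a common change in the amount of myelin RNA does not affect. *Ermn* was at -1.83, -1.63 and -1.60 log2 units in control 1, 2 and 3 and at -2.29, -2.40 and -2.05 in *AP1AR-DT* OE libraries A, B and C. *Mobp* was at 2.11, 1.95 and 2.26 log2 units in the controls and at 1.79, 1.71 and 1.66 in *AP1AR-DT* OE mice. *Mag* was at -0.71, -0.68 and -0.83 log2 units in the controls and at -0.40, -0.29 and -0.47 in *AP1AR-DT* OE mice. In none of the 3 did the groups overlap. Control 3 was the highest control for *Ermn* and *Mobp* and the lowest for *Mag*.

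Relative to the mean of the 9, the difference between *AP1AR-DT* OE and control mice was -0.56 log2 units for *Ermn* and -0.39 for *Mobp*, with every *AP1AR-DT* OE library below every control. It was 0.35 for *Mag*, 0.19 for *Cnp* and 0.14 for *Cldn11*, with every *AP1AR-DT* OE library above every control. The exact permutation *P* of each of these 5 was 0.1, the smallest possible. The groups overlapped for *Opalin* at 0.14, *Mog* at 0.13, *Mbp* at 0.030 and *Mal* at -0.031, with exact permutation *P* of 0.2, 0.2, 0.4 and 0.6. With each library left out in turn, *Ermn* stayed between -0.66 and -0.49, *Mobp* between -0.46 and -0.31 and *Mag* between 0.31 and 0.39. Measured against the same mean, 1.19% of 20732 genes were separated lower and 14.3% separated higher. These shares follow in part from the scale, since the mean of the 9 is itself lower in *AP1AR-DT* OE mice and places other genes higher against it, and *Ermn* and *Mobp* were known as the lowest members before it was chosen, so nothing is read from them. The 9 values are tied to each other because they sum to 0 in each library.

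**Figure D4:**
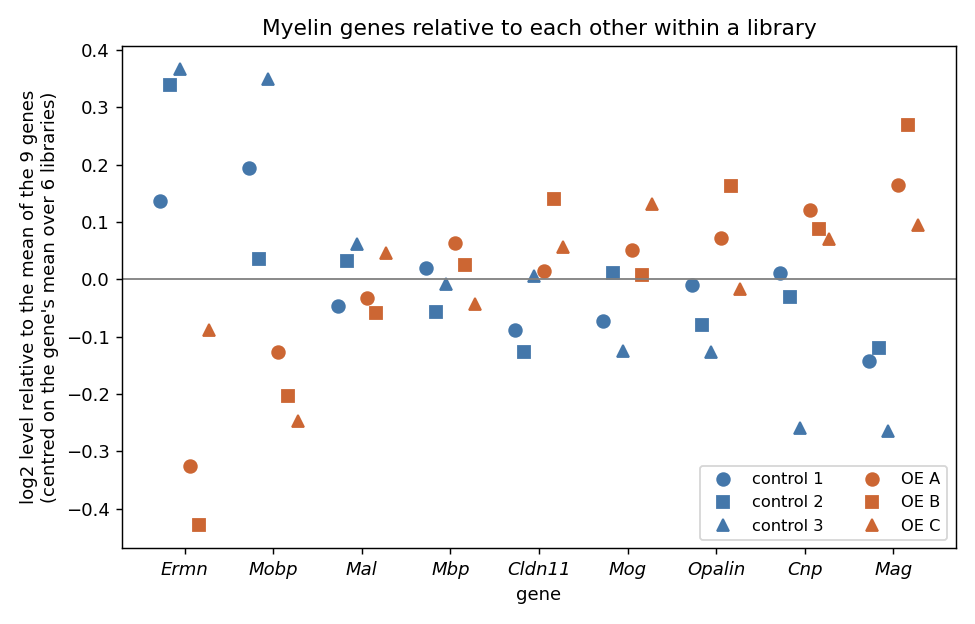
Log2 level of each gene relative to the mean of the 9 in the same library, centred on the gene's mean over the 6 libraries (vertical axis, log2 units), for control (blue) and *AP1AR-DT* OE (orange) libraries. *Ermn* and *Mobp* are lower in every *AP1AR-DT* OE library, with mean differences of -0.56 and -0.39, and *Mag* is higher in every one, with 0.35.

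The members at the ends of this order were also those of lowest and highest GC content in the longest transcript, 38.0% for *Ermn* and 57.6% for *Mag*, while *Mobp* was at 53.3%. When a smooth trend of counts with GC content was taken out of each library, the Log2FC was -0.69 for *Ermn* (edgeR adjusted *P* = 0.547), -0.96 for *Mobp* (adjusted *P* = 0.534) and -0.25 for *Mag* (adjusted *P* = 0.706). The correction made the difference smaller for *Ermn* and larger for *Mobp* and *Mag*. Relative to the mean of the 9 after the correction, the difference was -0.23 log2 units for *Ermn*, -0.48 for *Mobp*, 0.17 for *Mag* and 0.27 for *Opalin*, the groups of these 4 did not overlap, and the exact permutation *P* of each was 0.1. The value of *Ermn* was thus less than that of *Mobp* in size, *Opalin* and not *Mag* was the highest, and the groups overlapped for *Cnp* at 0.064 and *Cldn11* at 0.10. The relative differences of *Ermn*, *Mag*, *Cnp* and *Opalin* therefore depended on the GC correction by more than 1.5 times. Those of *Mbp* and *Mal*, small with and without the correction, went from 0.030 to -0.0099 and from -0.031 to -0.0079. The 2 DEGs among the 9 were the same, and 4.33% of all genes were then called lower. No stretch of 100 bases of the longest transcript of any of the 9 occurs in a transcript of another gene.

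Around these 9, 5 lists of oligodendrocyte genes were described, which hold 90 genes, all tested. Of these, 14 were downregulated, 0 upregulated and 76 not called, where 7.15% of all genes were called lower and 5.10% higher. Their median Log2FC was -0.21, and -0.021 without control 3. Of the 90, 66 were highest in control 3, as were 21.9% of all genes. By edgeR 0 passed adjustment and 15 had *P* under 0.05, while 2 of 87 passed adjustment by DESeq2 and 0 by limma-voom. The 14 called genes had a median GC content of 42.4% and the other 76 of 53.0%. After the GC correction 14 genes were again called lower, of which 6 were among the first 14, and 1 was called higher. Over all genes 4.33% were then called lower and 2.84% higher. The counts of calls in each list below are read beside these shares.

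Among 22 other membrane, paranode and gap junction genes, 5 were downregulated and 0 upregulated, with a median Log2FC of -0.31, and -0.069 without control 3.

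*Lpar1*, a receptor for lysophosphatidic acid, had 31.3, 46.5 and 62.7 normalized CPM in control 1, 2 and 3 and 23.8, 22.0 and 30.2 in *AP1AR-DT* OE libraries A, B and C. Its groups did not overlap. The Log2FC was -0.89 (SE 0.255, edgeR adjusted *P* = 0.295), and -0.60 without control 3, where it was also called. *Tspan2*, a tetraspanin of myelin, fell from a mean of 145 ± 40.7 (SD, n = 3) to one of 95.7 ± 6.98 (SD, n = 3) CPM without overlap, with a Log2FC of -0.60 (edgeR adjusted *P* = 0.295). *Gjc3* at -0.61 and *Gpm6b* at -0.35 were also called, and *Omg*, at -0.29 (edgeR adjusted *P* = 0.295), did not reach the Log2FC threshold. After the GC correction 2 of the 22 were called lower, *Lpar1* among them, and *Tspan2*, *Gjc3* and *Gpm6b* were not.

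Of 18 enzymes of myelin lipids and metabolism, 3 were downregulated and 0 upregulated, and 0 were called lower without control 3. After the GC correction 4 of the 18 were called lower, *Enpp2*, *Fa2h*, *Adamts4* and *Trf*, of which only *Enpp2* was called before. *Ugt8a*, which makes galactosylceramide, the signature lipid of myelin, was at 36.4, 59.3 and 80.0 normalized CPM in control 1, 2 and 3 and at 29.0, 33.5 and 37.3 in *AP1AR-DT* OE libraries A, B and C. Library C was just above control 1. Its Log2FC was -0.82 (SE 0.270, edgeR adjusted *P* = 0.295), and -0.49 after the GC correction, where it was not called. *Aspa*, which breaks down N-acetylaspartate, had a Log2FC of -0.62 (edgeR adjusted *P* = 0.309), and -0.31 after the GC correction, where it was not called either. *Enpp2*, at -2.81 (edgeR adjusted *P* = 0.309), is also on the choroid plexus list, and its 1112 CPM in control 3 stood against 52.0 to 78.3 CPM in all other libraries.

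Of 12 transcription factors of the lineage, 2 were downregulated and 0 upregulated. *Myrf*, the regulator of myelin genes, was at 43.2, 58.8 and 77.5 normalized CPM in control 1, 2 and 3 and at 42.1, 52.0 and 53.2 in *AP1AR-DT* OE libraries A, B and C, with a Log2FC of -0.29 (edgeR adjusted *P* = 0.542). *Sox10* and *Olig2*, which are on throughout the lineage, had Log2FC of 0.051 (edgeR adjusted *P* = 0.906) and -0.10 (adjusted *P* = 0.794). The 2 called factors were *St18* at -1.03 (edgeR adjusted *P* = 0.295), which fell from a mean of 11.5 ± 2.45 (SD, n = 3) to one of 5.65 ± 2.33 (SD, n = 3) normalized CPM, and *Zfp24* at -0.45 (adjusted *P* = 0.295). After the GC correction 3 of the 12 were called lower, where 4.33% of all genes were. These were *St18*, *Nkx6-2* at -0.81 and *Olig1* at -0.43, and *Zfp24* was not called. The Log2FC of *Sox10* and *Olig2* were then -0.22 and -0.31, and neither was called. *Tcf7l2* was at 134 CPM in control 3 and between 9.76 and 11.2 CPM in the other libraries, and it is on the thalamic list too.

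Of 27 cytoskeletal and signaling genes of myelin, 2 were downregulated, near the share of 7.15% over all genes, and 0 upregulated. The median Log2FC was -0.093. *Anln*, which encodes the septin-binding protein anillin, had 16.2, 21.2 and 42.0 normalized CPM in control 1, 2 and 3 and 11.4, 11.2 and 15.2 in *AP1AR-DT* OE libraries A, B and C. The groups did not overlap, and control 3 was again far above the rest. Its Log2FC was -1.07 (SE 0.350, edgeR adjusted *P* = 0.295), and -0.56 without control 3, where it was also called. *Il33*, a cytokine of oligodendrocytes and astrocytes, was the other at -0.42 (edgeR adjusted *P* = 0.295), and *Tppp*, a tubulin-binding protein, was at -0.20 (adjusted *P* = 0.357). After the GC correction 3 of the 27 were called lower, *Anln* among them, and 1 was called higher, while *Il33* was not called.

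Of 12 genes of newly formed oligodendrocytes, 2 were downregulated, *Itpr2* at -0.35 (edgeR adjusted *P* = 0.296) and *Kif19a* at -0.53 (adjusted *P* = 0.325), and 6 were highest in control 3. The mean log2 level of this list, set against its mean over the 6 libraries, was -0.23, -0.00021 and 0.65 in control 1, 2 and 3 and between -0.26 and -0.077 in *AP1AR-DT* OE mice, and its summed level was 284, 367 and 608 CPM in the controls and 303 to 321 CPM in *AP1AR-DT* OE mice. In these list levels, as for the 9 myelin genes, control 3 was the highest library and control 1 the lowest control. The list holds *Tcf7l2*, which is on the thalamic list too. *Tcf7l2* was at 134 CPM in control 3 and between 9.76 and 11.2 CPM elsewhere, and its part in the list levels was not taken out. Of 10 precursor genes, 2 were downregulated, 1 was upregulated and 1 was highest in control 3. *Lhfpl3* was at -0.46 (edgeR adjusted *P* = 0.295), *Ptprz1* at -0.45 (adjusted *P* = 0.323), and *Matn4* rose from a mean of 11.1 ± 0.594 (SD, n = 3) to one of 14.8 ± 0.509 (SD, n = 3) normalized CPM, at 0.42 (adjusted *P* = 0.295). *Tnr*, at -0.31 (edgeR adjusted *P* = 0.300), did not reach the Log2FC threshold. After the GC correction *Lhfpl3* and *Ptprz1* were not called and *Matn4* was. The mean log2 level of the precursor list, on the same scale, was 0.070, 0.11 and -0.023 in control 1, 2 and 3 and between -0.15 and 0.053 in *AP1AR-DT* OE mice, where that of the 9 myelin genes was 0.75 in control 3.

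Myelin genes of peripheral nerve and genes of the axon under the sheath were also counted. Of 7 peripheral genes 5 were tested and 0 were called, with *Pmp22* at -1.30 (edgeR adjusted *P* = 0.361), *Ncmap* at -0.63 (adjusted *P* = 0.472) and *Drp2* at 0.12 (adjusted *P* = 0.600). Of 12 axonal genes 1 was upregulated and 0 downregulated. *Sptbn4*, the spectrin of axon initial segments and nodes, was at 152, 128 and 129 normalized CPM in control 1, 2 and 3 and at 218, 209 and 172 in *AP1AR-DT* OE libraries A, B and C. Its groups did not overlap, with a Log2FC of 0.55 (SE 0.122, edgeR adjusted *P* = 0.295), and 0.23 after the GC correction, where it was not called. *Scn8a* and *Cntnap1*, a sodium channel of nodes and an adhesion protein of paranodes, were at 0.22 (edgeR adjusted *P* = 0.309) and 0.26 (adjusted *P* = 0.378) and were not called.

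Outside the 9, the genes whose pattern over the 6 libraries was most like their mean were *Prps2*, *Myo1d*, *Syt9*, *Ndrg1*, *Bcas1*, *Rnf152*, *Cflar* and *Gss*. The 20 most alike of 12038 genes had a Pearson *r* between 0.984 and 0.995 over 6 libraries, which share control 3 as their highest point. *Ndrg1* was at 77.0, 114 and 184 normalized CPM in control 1, 2 and 3 and at 88.4, 95.0 and 88.3 in *AP1AR-DT* OE libraries A, B and C. *Bcas1*, a gene of newly formed and myelinating oligodendrocytes, was at 120, 166 and 284 normalized CPM in the controls and at 126, 139 and 122 in *AP1AR-DT* OE mice. In both genes the *AP1AR-DT* OE libraries lay between control 1 and control 2, as they did for most members. Of the 20 genes, 4 were on one of the 5 oligodendrocyte lists, *Bcas1*, *Jam3*, *Elovl7* and *Plekhb1*, which hold 81 of the genes compared. *Synpo2*, of the thalamic list, was among the 20 as well, at 114 CPM in control 3 and 5.77 to 12.6 CPM in the other libraries.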

How the data were processed

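RNA of 3 control and 3 *AP1AR-DT* OE mice was analysed from one table. The authors mapped reads to GRCm38 with Bowtie2, which does not align reads across introns, ran StringTie with the GENCODE annotation, and deposited the resulting whole-number counts of each gene without normalization. The submitters' processing notes name TopHat2 2.0.4, SAMtools, HTSeq, Cuffdiff, edgeR 2.6.12 and mm9 instead; which tools made the table was not settled here, and its coordinates were not used. The kit named in the labels does not mark strand, so overlapping genes on both strands cannot be told apart. The deposited mean normalized signal per gene, the log2 fold changes with their errors, the Wald score and the P-value columns hold the authors' own comparison and were not used. There were 0 further columns of per-sample values.

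Groups came from the labels. Counts of all 52390 genes were filtered with filterByExpr, scaled by TMM and tested with edgeR 4.0.16 in R 4.3.3 (quasi-likelihood F-test, two-sided, no covariate, Benjamini-Hochberg adjustment over 21844 genes). The common biological coefficient of variation was 0.313. No pair of libraries agreed within sampling noise. Exact permutation tests used log2 normalized CPM over 20 splits. Coordinates, GC content and exon lengths are from GENCODE vM21 (GRCm38), where 52133 identifiers were found, and GC content was known for 21817 tested genes. Alternatives were DESeq2 1.42.0, its size factors, library totals, limma-voom (limma 3.58.1), no filter, at least 10 counts in every library, splines (5 degrees of freedom) on GC content or length, and leaving out each library. In counts simulated for this comparison over 21217 genes, edgeR called 152 of the 193 genes given a log2 change of 1, and 981 unchanged genes. Tables and figures used Python 3.11.15, pandas 2.3.3, numpy 2.4.6 and matplotlib 3.10.9.

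The members and gene lists were chosen with earlier results of these data known. Each member was described. In each further list the 3 genes with the smallest *P* were to be named, with *Myrf*, *Sox10* and *Olig2*, and 8 of the 20 genes most like the members. Genes named beyond this rule, such as *Gjc3*, *Gpm6b*, *Ptprz1*, *Jam3*, *Elovl7*, *Plekhb1*, *Synpo2*, *Ttr*, *Slc17a7*, *Neurod2* and *Camk2a*, were chosen after their values were seen. Some genes of these lists are not reported here.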

Additional observations from a re-analysis of the deposited data

How the results depend on the processing

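The 9 myelin genes held 2 DEGs in all 8 other settings, and between 1 and 6 with a library left out (6 without control 1, 1 without each *AP1AR-DT* OE library). The 5 oligodendrocyte lists held 14 DEGs, and between 2 and 32 with a library left out (32 without control 1, 9 without control 3, 4 without library A, 2 without library B). All genes held 2675 DEGs, 1564 after the GC correction, and between 1430 and 3508 with a library left out. The median Log2FC of the 9 ranged from -0.53 to 0.00098. The Log2FC of 5 genes turned above 0 without control 3, and with single libraries left out it ranged from -0.51 to 0.00098 for *Mog*, from -0.26 to 0.22 for *Mag*, from -0.38 to 0.018 for *Cnp*, from -0.53 to 0.095 for *Cldn11* and from -0.46 to 0.035 for *Opalin*. The Log2FC of *Ermn*, *Mobp*, *Mal* and *Mbp* was below 0 in each of the 15 fits. Relative to the mean of the 9, the GC correction took *Ermn* from -0.56 to -0.23, *Mag* from 0.35 to 0.17, *Cnp* from 0.19 to 0.064 and *Opalin* from 0.14 to 0.27, and the length correction took *Mbp* from 0.030 to 0.10, both chosen after seeing the data. The small values of *Mbp* and *Mal* went from 0.030 to -0.0099 and from -0.031 to -0.0079 with the GC correction. The cause of these shifts was not tested. No paired analysis was possible because the groups share fewer than 2 replicate numbers in the labels and the *AP1AR-DT* OE columns carry no mouse number. With 3 mice a group the exact permutation test cannot go below 0.1, and counting depth was not the limit for these genes.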

Other observations

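Of 10 microglia markers, 5 were upregulated and 0 downregulated, where 5.10% of all genes were upregulated, and 1 was highest in control 3. After the GC correction 0 of the 10 were called, where 2.84% of all genes were upregulated, and the median Log2FC went from 0.34 to 0.20. *C1qc*, a chain of complement C1q, was at 46.6, 34.4 and 47.1 normalized CPM in control 1, 2 and 3 and at 68.2, 64.0 and 47.7 in *AP1AR-DT* OE libraries A, B and C, and *Trem2*, a receptor of microglia, at 12.8, 10.3 and 13.0 and at 18.5, 16.1 and 13.8. The groups did not overlap for either, though library C was close to the controls, with a Log2FC of 0.49 for *C1qc* (edgeR adjusted *P* = 0.300) and 0.42 for *Trem2* (adjusted *P* = 0.312), and 0.30 and 0.37 after the GC correction. *P2ry12*, a receptor of homeostatic microglia, had a Log2FC of -0.25 (edgeR adjusted *P* = 0.352). Of 10 endothelial markers 1 was highest in control 3 and 3 were upregulated, the same 3 before and after the GC correction, among them *Cldn5*, the claudin of the blood-brain barrier, at 17.2, 19.5 and 24.1 normalized CPM in control 1, 2 and 3 and 34.5, 42.1 and 27.0 in *AP1AR-DT* OE libraries A, B and C (Log2FC 0.77, edgeR adjusted *P* = 0.295). Of 10 astrocyte markers 2 were downregulated, where 7.15% of all genes were. These were *Sox9* at -0.43 (edgeR adjusted *P* = 0.295) and *Aqp4* at -0.60 (adjusted *P* = 0.323), and *Aqp4* was not called after the GC correction. In 6 of the 10 the highest library was control 3, as in 21.9% of all genes, 9 of 10 Log2FC were below 0, and the mean log2 level of the list against its mean over the 6 libraries was 0.23 in control 3 and between -0.13 and 0.068 elsewhere. *Aqp4* was at 238 CPM in control 3 against 102 to 130 CPM elsewhere. The genes named here were chosen after their values were seen, and none of them passed adjustment over all genes by edgeR.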
